A study of Arabidopsis thaliana with 8 samples.

Results

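The fry1-6 mutant was compared with wild type (WT) through mRNA sequencing of Arabidopsis thaliana seedlings, and the question was which processes rise and fall in the mutant apart from the targets of microRNAs and the genes that generate small interfering RNAs (siRNAs). The comparison takes 4 of the 8 libraries of the series, namely fry1-6 libraries 1 and 2 and WT libraries 1 and 2, chosen by their titles, and it uses nuclear genes only. The groups are fry1-6, a T-DNA insertion line of the FIERY1 gene, and WT, both of the Col-0 ecotype. All libraries came from whole seedlings 12 days old, and the labels also call the stage two-week. The labels give growth at 23 °C with 16 h of light, whereas the methods of the study describe short days, and neither gives the time of day of sampling. The other 4 libraries are double mutants that also lack an RNA-dependent RNA polymerase, either RDR6 (fry1-6 rdr6-11) or RDR1 (fry1-6 rdr1-1). They help to estimate the spread between libraries, and they count in the filter on low counts and in averages over all 8 libraries. Nothing in the labels says that libraries of a genotype came from separate cultures, so the p-values measure the spread between these libraries, which may be partly technical.

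FIERY1, annotated as SAL1, is a phosphatase that removes 3′-phosphoadenosine 5′-phosphate (PAP), a by-product of sulfate transfer reactions. PAP inhibits the XRN exoribonucleases, which degrade RNA from the 5′ end, and in the nucleus these enzymes take part in clearing the RNA that a polymerase goes on making beyond the end of a gene. The same gene has been studied as a regulator of drought and high-light responses, of flowering and of leaf shape.

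Changes in fry1-6 were mostly increases. Levels are given as CPM, counts per 1000000 of the library after scaling. Of 22653 nuclear genes tested, 1799 (7.94%) were called higher and 497 (2.19%) were called lower in fry1-6, where a call is an adjusted p under 0.05 in the quasi-likelihood test of edgeR with the library number as a pair. At an unadjusted p under 0.05 there were 6126 genes. The increases were also larger, with a median of 2.06 on the log2 scale among genes called higher and of -0.805 among genes called lower, beside -0.018 over all genes tested. A change of more than 1 on the log2 scale was seen in 1485 (82.5%) of the genes called higher and in 164 (33.0%) of those called lower. All 2296 called genes moved the same way in both pairs, and the fry1-6 libraries did not overlap the WT libraries in 1765 (98.1%) of the genes called higher and in 411 (82.7%) of those called lower, beside 42.6% of all genes tested. The calls were made from these same libraries, so neither count is a separate check of them.

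The pair matters for these counts. Libraries with the same number deviated together from their genotype means (correlation across genes 0.615), and the SD of the log2 difference between libraries of one genotype was 0.759 in fry1-6 and 0.973 in WT. Without the pair in the fit, 1164 genes were called higher and 91 lower. With 1 pair left out, 520 to 597 genes were called higher and 46 to 68 lower, and with 1 fry1-6 rdr6-11 library left out, 1149 to 1170 were called higher and 223 to 232 lower. No gene called here had the opposite sign in any of these fits.

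**Figure D1:**
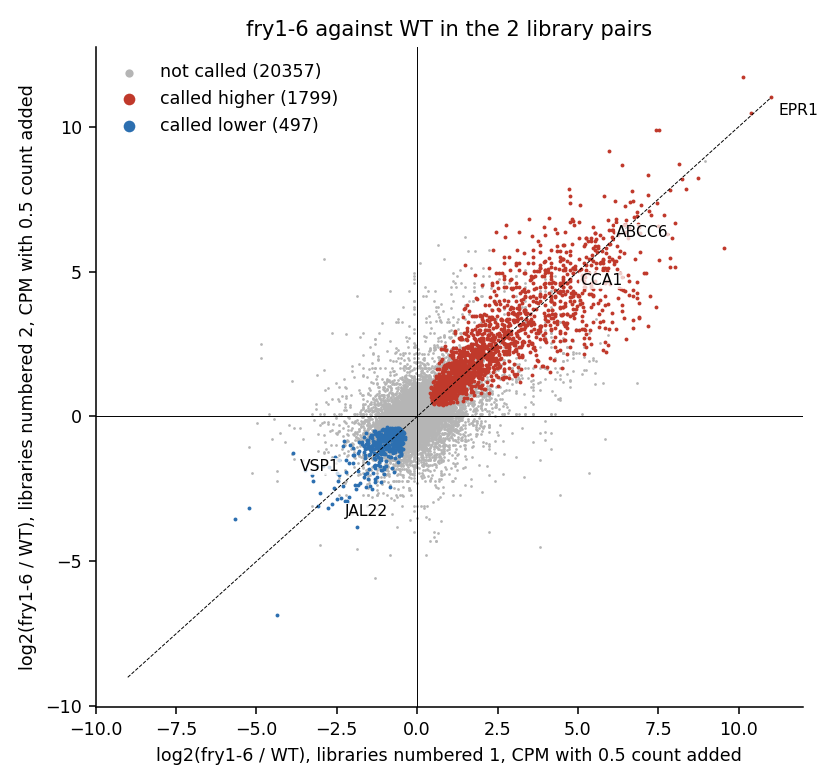
Log2 ratio of fry1-6 over WT for each of the 22653 nuclear genes tested, with libraries numbered 1 on the x axis and libraries numbered 2 on the y axis (CPM with 0.5 count added); red points were called higher (1799), blue points lower (497) and grey points not called. The called genes lie where both pairs have the same sign, and the red cloud reaches much farther from the origin than the blue one.

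FIERY1 itself does not serve as a check of the labels, because the insertion line was counted over the whole gene and the counts hold no position within it. SAL1 (AT5G63980) had 102.7 and 94.7 CPM in fry1-6, against 49.8 and 27.8 CPM in WT, a log2 change of 1.40 (SE 0.43) with an adjusted p of 0.0879 (edgeR). SAL1 is on the study's list of genes whose small RNAs differed in fry1, called the siRNA list below. That list joins genes with more and genes with fewer small RNAs, and they were not separated here. The next gene on the same strand, AT5G63990, annotated as an inositol monophosphatase family protein, had 23.2 and 21.6 CPM in fry1-6 and 8.35 and 4.84 CPM in WT, and it was called higher (log2 change 1.81, adjusted p 0.0192). Neither gene's libraries overlapped between the genotypes.

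Most of the largest increases were found in genes that stand close behind another gene on the same strand. The rule for the largest increases took the 12 called protein-coding genes with the highest log2 change that overlap no other gene, reach a mean log2 CPM of 4 over the libraries and have no overlap between the libraries of fry1-6 and WT. In 9 of these 12, the next gene upstream was on the same strand within 600 bp. Among all tested protein-coding genes that overlap no gene, 4617 had a same-strand neighbour within 1000 bp upstream and 9093 did not. Positions and gene ends are those of the RefSeq annotation of TAIR10.1, and the spacers below are printed because they show how little sequence lies between some of these genes and the gene before them; capitals mark bases that belong to neither gene.

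PSAD-1 to AT4G02760 (chromosome 4, 1229015 to 1229030, minus strand): TAGCCCAACGGTTCAA
GER3 to UBQ4 (chromosome 5, 6975010 to 6975028, minus strand): TGGGCCTTTGGGCCTTTTG
AT2G18090 to AT2G18100 (chromosome 2, 7867821 to 7867827, plus strand): CCAGTTT
AT3G00310 to ABCC6 (chromosome 3, 4208262 to 4208286, minus strand): GTTCTTTTGTCTTGGTGGTCTGCGA

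AT4G02760, an RNI-like superfamily protein, begins 16 bp behind PSAD-1, which encodes a subunit of photosystem I. AT4G02760 had 164 and 121 CPM in fry1-6, against 5.15 and 8.63 CPM in WT (log2 change 4.37, SE 0.29, adjusted p 0.000505 by edgeR). PSAD-1 had 1873 and 1370 CPM in fry1-6 and 2584 and 1372 CPM in WT, and it was not called. Thus both fry1-6 libraries of the downstream gene lay above both WT libraries, whereas the upstream gene was no higher in fry1-6.

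The same arrangement was seen for AT2G18100, a transmembrane protein of unknown function that begins 7 bp behind AT2G18090. AT2G18100 had 50.6 and 49.3 CPM in fry1-6 and 2.18 and 2.67 CPM in WT (log2 change 4.36, SE 0.22). AT2G18090, a PHD finger protein, had 42.0 and 45.5 CPM in fry1-6, against 42.2 and 64.7 CPM in WT, and was not called. UBQ4, a polyubiquitin gene 19 bp behind GER3, had 394 and 260 CPM in fry1-6, against 47.4 and 26.3 CPM in WT (log2 change 3.18). Reads of UBQ4 may be shared with other polyubiquitin genes, so its value is uncertain. GER3, a germin, had 706 and 484 CPM in fry1-6 and 1291 and 697 CPM in WT and was not called.

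ABCC6, an ABC transporter, had 64.3 and 65.1 CPM in fry1-6, against 1.02 and 0.559 CPM in WT (log2 change 6.38, SE 0.29). The gene 25 bp before it, AT3G00310, did not pass the filter on low counts. AT5G01700, a protein phosphatase 2C family member, lies 59 bp behind AT5G01710, and it had 40.7 and 47.8 CPM in fry1-6 and 2.32 and 1.92 CPM in WT (log2 change 4.38). AT2G41440, annotated as an agamous-like MADS-box protein, lies 600 bp behind ERD15, and it had 89.1 and 250.9 CPM in fry1-6, against 6.68 and 7.76 CPM in WT (log2 change 4.40). The fry1-6 libraries of AT2G41440 differed from each other by more than its WT libraries did, and ERD15 itself had 851 and 2134 CPM in fry1-6 and 1040 and 2903 CPM in WT.

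In some cases the gene upstream had also risen, so that runs of neighbours moved together. AT3G21660, a UBX domain protein, had 92.0 and 62.5 CPM in fry1-6 and 0.363 and 0.248 CPM in WT (log2 change 7.95), and AT3G21670, the transporter gene 102 bp before it, had 62.9 and 37.6 CPM in fry1-6, against 13.6 and 11.1 CPM in WT (log2 change 1.99). On chromosome 3, NAXT1, a nitrate excretion transporter, begins 2 bp behind the kinase gene MPK3, and AT3G45660, a transporter of the major facilitator superfamily, begins 285 bp behind NAXT1. NAXT1 had 59.0 and 81.6 CPM in fry1-6 and 9.15 and 9.31 CPM in WT (log2 change 2.91), and AT3G45660 had 15.5 and 35.5 CPM in fry1-6, against 1.09 and 1.06 CPM in WT (log2 change 4.51). MPK3, in contrast, had 120 and 138 CPM in fry1-6 and 228 and 314 CPM in WT and was not called (adjusted p 0.0802). AT2G32235, an uncharacterized protein 50 bp behind AT2G32240, completes the genes of this kind among the 12, with 28.9 and 30.3 CPM in fry1-6 and 1.597 and 1.801 CPM in WT (log2 change 4.12).

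Further genes of known function had this position, and they are named here after their values were seen. NRPD2B, annotated as a subunit of a nuclear RNA polymerase and lying 56 bp behind BGLU44, had 167 and 112 CPM in fry1-6, against 14.9 and 7.76 CPM in WT (log2 change 3.67). NRPD7, a subunit gene of the polymerases that make siRNA precursors, lies 40 bp behind the ATP sulfurylase gene APS1, and it had 15.8 and 22.6 CPM in fry1-6 and 1.45 and 2.48 CPM in WT (log2 change 3.29). Neither BGLU44 nor APS1 was called. AT2G15880, a leucine-rich repeat protein 49 bp behind MEE14, reached 1490 and 1139 CPM in fry1-6, against 94.3 and 79.3 CPM in WT (log2 change 3.91), while MEE14 had 569 and 816 CPM in fry1-6 and 475 and 813 CPM in WT.

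**Figure D2:**
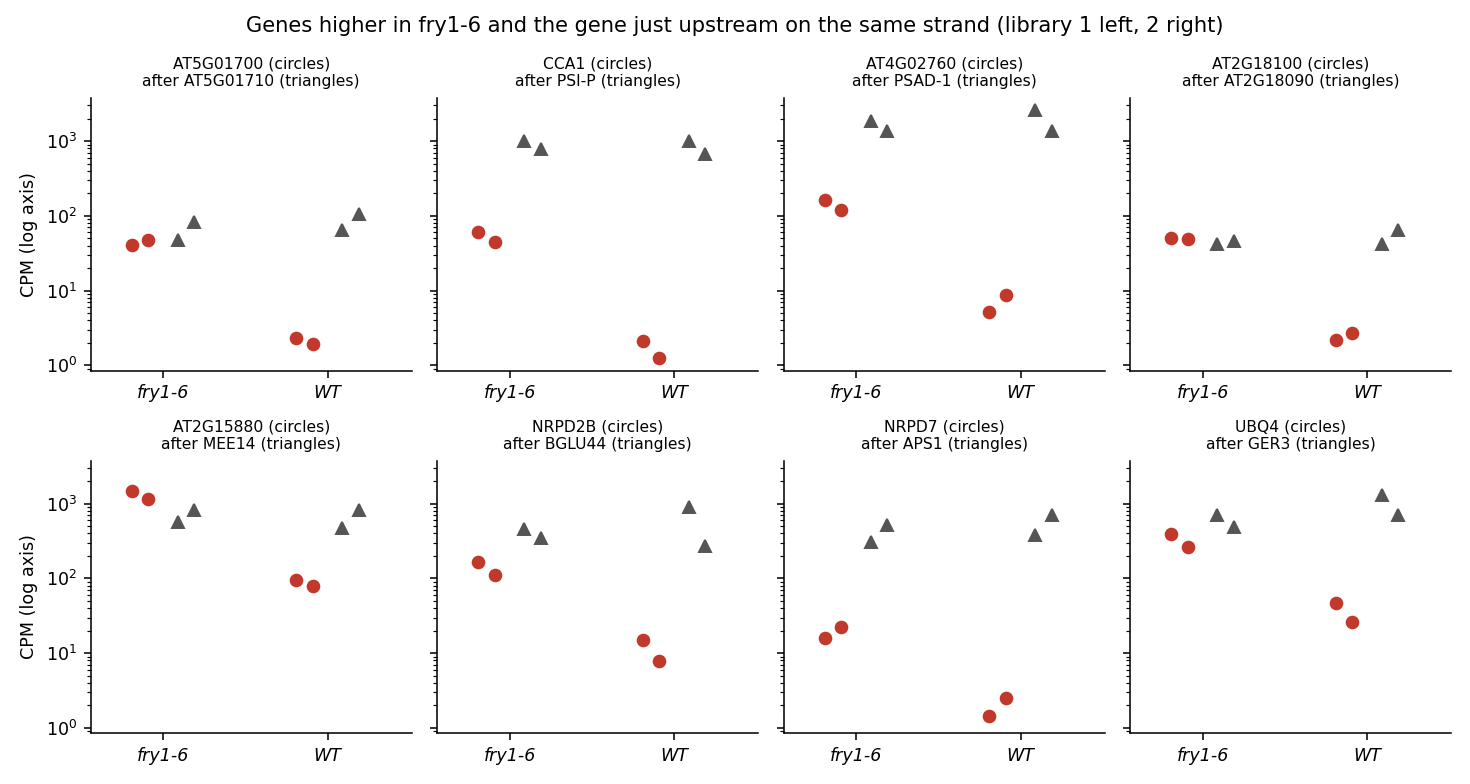
CPM (log axis, not divided by gene length) of 8 genes called higher in fry1-6 (red circles) and of the gene just upstream on the same strand (grey triangles), with both libraries of fry1-6 left of both libraries of WT in each panel. The circles of fry1-6 stand far above those of WT in every panel, for example 50.6 and 49.3 CPM against 2.18 and 2.67 CPM for AT2G18100, whereas the triangles have overlapping or similar ranges in both genotypes.

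Across all protein-coding genes that overlap no other gene, the share called higher followed the distance to a gene upstream on the same strand. With such a neighbour within 200 bp, 339 of 1894 genes (17.9%) were called higher, which can be read against the 7.94% of all genes tested. At 200 to 500 bp the share was 152 of 1422 (10.7%), at 500 to 1000 bp 69 of 1301 (5.30%), at 1000 to 2000 bp 60 of 1352 (4.44%), and beyond 2000 bp 2.53% to 2.99%. With the upstream neighbour on the opposite strand, the share was 25 of 1071 (2.33%) within 200 bp and lay between 2.33% and 5.35% at every distance. No such gradient was seen among genes called lower, whose share lay between 1.12% and 3.18% in all of these classes.

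The share called higher was also larger with a higher level of the upstream gene. For same-strand neighbours within 1000 bp, it was 7.20% where the neighbour's average log2 CPM was under 2, 12.5% at 2 to 4, 16.4% at 4 to 6, 23.1% at 6 to 8 and 37.5% (24 of 64) at 8 and over. For neighbours on the opposite strand the same classes gave between 2.38% and 4.13%. The level of the gene itself had the reverse relation: among genes with a same-strand neighbour within 200 bp, 35.9% were called higher where their own average log2 CPM was under 2, and 3.31% where it was 6 to 8. This relation was not limited to such genes, since the shares over all genes tested were 12.7% and 2.48% in the same classes. The average is over all 8 libraries, fry1-6 included, and these levels are not divided by gene length.

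Most of the upstream genes were not called. Of 525 tested same-strand neighbours that lie upstream of the genes called higher, 52 (9.90%) were themselves called higher, with a median log2 change of -0.0695, beside 7.34% and -0.0322 for the upstream neighbours of all such genes. Downstream neighbours gave a smaller difference, since the share of genes called higher was 6.23% with a same-strand gene within 200 bp downstream and 9.42% with a gene of the opposite strand ending within 200 bp. The counts hold no position within a gene, and whether the counting used strand is not given in the sources used here. Therefore reads of a transcript that runs on from the gene upstream and reads of a gene's own transcript cannot be told apart.

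**Figure D3:**
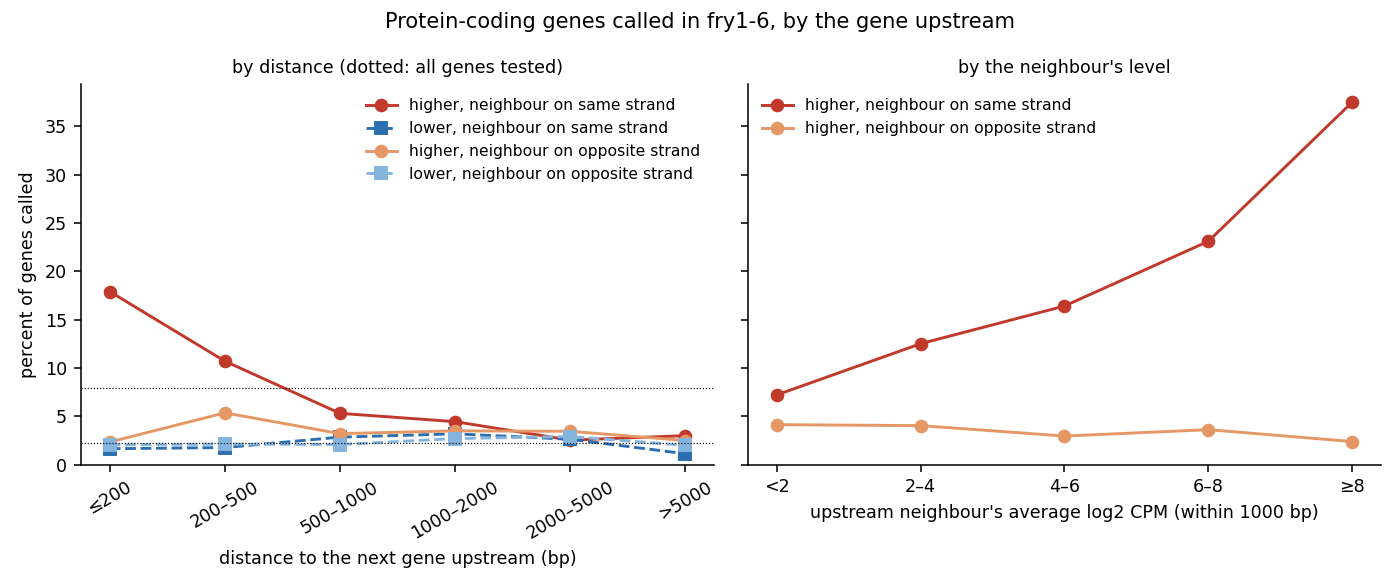
Percent of protein-coding genes called higher or lower in fry1-6, by distance to the next gene upstream and its strand (left) and, for neighbours within 1000 bp, by that neighbour's average log2 CPM (right); dotted lines give the percent of all genes tested that were called higher (7.94) and lower (2.19). The red line for same-strand neighbours falls with distance, with 17.9% within 200 bp, and climbs with the neighbour's level to 37.5%, while the lines for opposite-strand neighbours stay at or below 5.35%.

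Protein-coding genes that overlap no gene and have a same-strand neighbour within 1000 bp upstream made up 560 (31.1%) of the genes called higher. They were 93 (18.7%) of those called lower and 4617 of all 22653 genes tested. Genes that overlap another gene were 799 (44.4%) of those called higher, 171 (34.4%) of those called lower and 8464 of all genes tested. Protein-coding genes standing apart from both arrangements were 314 (17.5%), 228 (45.9%) and 9093 in the same order. Of the 9093 genes tested that stand apart, 3.45% were called higher and 2.51% lower, so that increases and decreases came closer to balance in this class. Among the called genes that are named from the process lists, CSD1, GPX7, CESA4, DCL2, SERAT2;1, CASP1, HSP17.4, TSO2, EBF2, MBF1C, CYP81F4, SARD1, EDS5, APS3, APS4 and PYK10 overlap another annotated gene, and without strand their reads and those of the overlapping gene cannot be told apart. Of those that overlap no gene, CCA1, APX2, NRT2.7, HSP18.2 and MAF3 among the genes called higher and CAF1b and EDS1 among those called lower have a same-strand neighbour within 1000 bp upstream.

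Pseudogenes and ribosomal RNA genes had high shares of calls. Of 199 genes annotated as pseudogenes 61 (30.7%) were called higher, and of 194 transcribed pseudogenes 64 (33.0%). The share was 130 of 1195 (10.9%) for long noncoding RNAs and 3 of 111 (2.70%) for snoRNAs. Of the 4 ribosomal RNA genes tested, 3 were called higher. For instance, AT3G41979 had 1473 and 587 CPM in fry1-6, against 120 and 18.2 CPM in WT (log2 change 4.30), and AT2G01010 had 217 and 85.9 CPM in fry1-6 and 18.9 and 3.23 CPM in WT (log2 change 4.06). The fourth, AT3G41768, had 9397 and 3201 CPM in fry1-6 and 6150 and 583 CPM in WT and was not called (adjusted p 0.0812). Ribosomal RNA genes are near-identical copies, so these values are uncertain.

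Some gene families had many members called higher. They were picked out after their values were seen, among families with at least 12 tested members, and they carry no test. Of 15 purine permeases 6 were called higher (median log2 change 0.901), where 7.94% of all genes tested were. The counts were 14 of 47 receptor like proteins (median 0.781), 9 of 29 lectin receptor kinases (median 0.109) and 6 of 17 F-box proteins of the FBD type (median 0.849). None of these families had a member called lower. Of the members that stand apart from other genes, 0 of 5 purine permeases, 3 of 19 receptor like proteins, 0 of 11 lectin kinases and 1 of 5 of these F-box proteins were called higher, beside 3.45% of all protein-coding genes standing apart.

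Among the 12 largest increases, 3 genes had neither an overlap nor a same-strand neighbour within 1000 bp. EPR1 (AT2G27380), which encodes an extensin-like cell wall protein, had 73.7 and 64.4 CPM in fry1-6 and no count in either WT library, which makes it at least 342-fold higher against a floor of 3 counts per library. AT5G10340, an F-box protein, had 76.8 and 46.4 CPM in fry1-6, against 0.145 and 0.124 CPM in WT (log2 change 8.74). AT2G16586, an uncharacterized protein, had 54.8 and 22.8 CPM in fry1-6 and 0.726 and 0.186 CPM in WT (log2 change 6.43). The last of these genes and AT5G10340 are on the siRNA list, which joins genes with more and with fewer small RNAs in fry1. Of that list 204 genes were tested, 23 (11.3%) were called higher and 0 were called lower. The shares over all genes tested were 7.94% and 2.19%.

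Other genes standing apart that rose, named after their values were seen, included known targets of microRNAs and genes of plastids and light responses. The auxin response factor ARF10, a target of miR160, had 74.3 and 78.1 CPM in fry1-6, against 14.4 and 15.5 CPM in WT (log2 change 2.35), and the GRAS factor HAM1 (AT2G45160), a target of miR171, had 123 CPM in both fry1-6 libraries and 34.4 and 36.1 CPM in WT (log2 change 1.80). Outside these targets, ABA4, required for making the precursors of abscisic acid, had 82.3 and 52.6 CPM in fry1-6, against 24.0 and 12.0 CPM in WT (log2 change 1.95). GLK2, a transcription factor of chloroplast development, had 112 and 67.9 CPM in fry1-6 and 54.6 and 19.4 CPM in WT (log2 change 1.41). SIGE, a sigma factor of the plastid RNA polymerase, had 34.0 and 31.2 CPM in fry1-6, against 13.9 and 12.3 CPM in WT (log2 change 1.31). The libraries of these genes did not overlap between fry1-6 and WT.

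A circadian clock gene, CCA1, was among the 12 largest increases. The plant clock is a loop in which CCA1 and LHY act around dawn, the pseudo-response regulators PRR9, PRR7 and PRR5 follow through the day, and TOC1, GI and ELF4 act towards evening. Of 21 clock genes tested, 4 (19.0%) were called higher, beside 7.94% of all genes tested, and 0 lower, with a median log2 change of 0.18. CCA1 had 60.9 and 44.3 CPM in fry1-6, against 2.10 and 1.24 CPM in WT (log2 change 4.99, SE 0.46, adjusted p 0.00138 by edgeR). CCA1 lies 449 bp behind PSI-P, a thylakoid protein gene, which had 1010 and 779 CPM in fry1-6 and 992 and 665 CPM in WT and was not called.

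PRR9 had 11.6 and 4.74 CPM in fry1-6 and 1.67 and 0.186 CPM in WT (log2 change 3.34, adjusted p 0.00776). PRR5 had 245 and 170 CPM in fry1-6, against 159 and 96.6 CPM in WT (log2 change 0.72), and CDF1 (AT5G62430), a repressor of flowering whose activity is timed by the clock, had 11.8 and 5.92 CPM in fry1-6 and 6.90 and 2.36 CPM in WT (log2 change 1.02). LHY, the partner of CCA1, had 4.41 and 3.29 CPM in fry1-6 and 0.871 and 0.124 CPM in WT, but it missed the threshold (adjusted p 0.0514), and so did RVE8 (4.88 and 2.43 CPM in fry1-6 and 1.16 and 0.373 CPM in WT, adjusted p 0.0574). Among the called clock genes, CDF1 had libraries that overlapped between the genotypes. LHY and RVE8 are named after their values were seen.

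The evening genes were not called. TOC1 had 212 and 266 CPM in fry1-6, against 328 and 388 CPM in WT (adjusted p 0.432), and GI had 277 and 177 CPM in fry1-6 and 322 and 143 CPM in WT (adjusted p 0.944). The pair was needed for most calls of this list: without it only CCA1 was called, whereas total counts in place of TMM, and DESeq2 in place of edgeR, gave 8 clock genes called higher. CCA1 kept its call in 17 of 18 alternatives. A difference in sampling time was not tested, since no time of day is given.

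Genes of the high-light and chloroplast-to-nucleus response, a pathway in which PAP is a known signal, moved in part. Of 15 tested, 3 were called higher, beside 7.94% of all genes tested, and 0 lower (median 0.125). APX2, a cytosolic ascorbate peroxidase used as a marker of high light, had 8.47 and 7.70 CPM in fry1-6, against 0 and 0.186 CPM in WT. This is a ratio of 80.5, with a 95% counting interval of 27.2 to 393, from 242 counts in fry1-6 and 3 counts in WT. APX2 lies 407 bp behind AT3G09630, a ribosomal protein gene with 167 and 160 CPM in fry1-6 and 186 and 203 CPM in WT.

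CSD1, a copper/zinc superoxide dismutase and a known target of miR398, had 89.9 and 114 CPM in fry1-6, against 18.4 and 28.3 CPM in WT (log2 change 2.15). GPX7, a chloroplast glutathione peroxidase, had 15.3 and 16.8 CPM in fry1-6 and 3.92 and 6.52 CPM in WT (log2 change 1.65). ELIP1, another high-light marker, had 5.76 and 2.17 CPM in fry1-6 and 3.85 and 0.931 CPM in WT and was not called, and APX1, the main cytosolic ascorbate peroxidase, had 361 and 470 CPM in fry1-6 and 634 and 777 CPM in WT (adjusted p 0.0952). The list therefore did not move as a whole.

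In the photosynthetic apparatus itself, 2 of 34 tested genes of light harvesting and photosystems (5.88%) were called higher and 0 lower, beside 7.94% of all genes tested called higher. The median was -0.031, close to that of all genes tested. CAB2, a chlorophyll-binding antenna protein, had 6932 and 4745 CPM in fry1-6, against 3052 and 1712 CPM in WT (log2 change 1.33), and LHCB2.1, of the same kind, had 2931 and 1732 CPM in fry1-6 and 1576 and 760 CPM in WT (log2 change 1.04). Antenna genes are close paralogs, and CAB2 is also on the siRNA list. Neither kept its call without the pair. Carbon fixation genes had no call among 20 tested (median -0.211), and RBCS1A, the most abundant of them, had 12464 and 8962 CPM in fry1-6 and 15653 and 9826 CPM in WT.

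**Figure D4:**
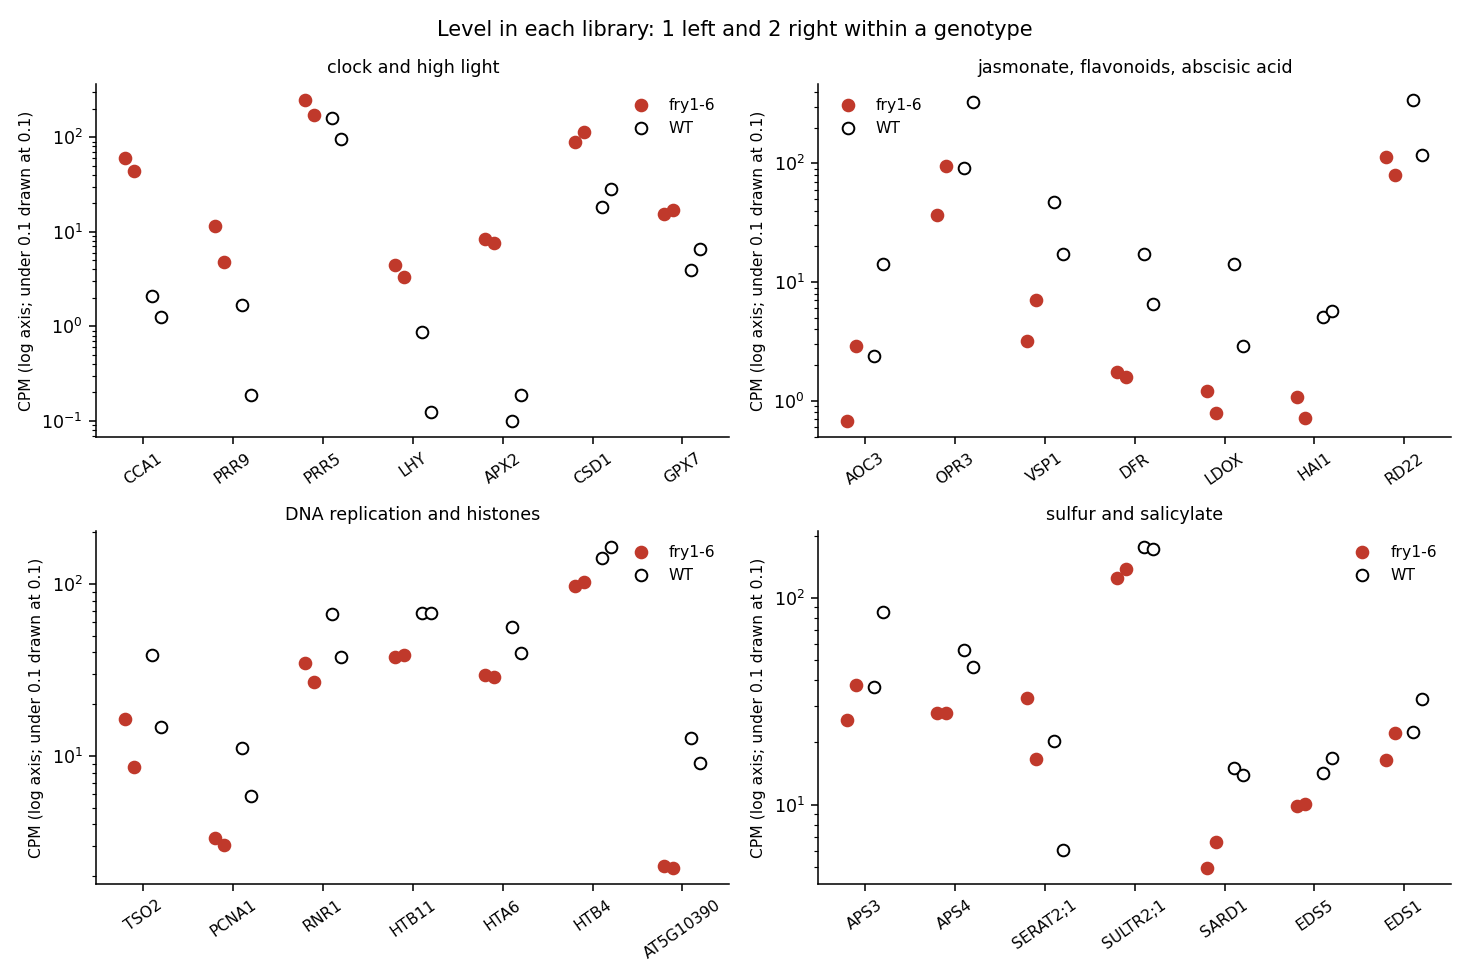
CPM (log axis, values under 0.1 drawn at 0.1) in each fry1-6 library (red) and each WT library (open circles) for genes of the clock and high light, of jasmonate, flavonoids and abscisic acid, of DNA replication and histones, and of sulfur and salicylate; library 1 is left of library 2. CCA1 is higher in both fry1-6 libraries (60.9 and 44.3 CPM against 2.10 and 1.24 CPM), DFR and LDOX are lower in both fry1-6 libraries, and AOC3 and OPR3 are lower in fry1-6 only when libraries of the same number are compared.

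The list of jasmonate synthesis and response had the lowest median. Jasmonate is a lipid-derived hormone made through the lipoxygenase, AOS, AOC and OPR3 enzymes, and it activates wound and herbivore defence genes. Of 22 tested genes, 4 were called lower and 0 higher, against 2.19% of all genes tested called lower. The median log2 change was -1.05, and 21 of 22 members were below 0. This median lay between -1.24 and -0.88 in all alternatives tried, including those with 1 pair left out.

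AOC3, an allene oxide cyclase, had 0.678 and 2.89 CPM in fry1-6, against 2.40 and 14.3 CPM in WT (log2 change -2.13, SE 0.29, adjusted p 0.00588 by edgeR). OPR3, the reductase of jasmonate synthesis, had 36.5 and 95.3 CPM in fry1-6 and 90.6 and 327 CPM in WT (log2 change -1.55). The libraries of both enzymes overlapped between the genotypes, and the order appeared only within a pair. VSP1, a vegetative storage protein induced by jasmonate, had 3.19 and 7.11 CPM in fry1-6, against 47.3 and 17.1 CPM in WT (log2 change -2.51). PDF1.2, a plant defensin, had 1 count in fry1-6 and 41 counts in WT in all, a ratio of 0.0243 with a 95% counting interval of 0.000602 to 0.143.

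The remaining jasmonate genes were not called, and some were set by 1 pair. LOX2, the lipoxygenase that feeds the pathway, had 292 and 226 CPM in fry1-6, against 1299 and 228 CPM in WT, so that the pair numbered 1 alone showed a difference. MYC2, the main transcription factor, had 108 and 46.4 CPM in fry1-6 and 204 and 93.7 CPM in WT (adjusted p 0.165). Without the pair in the fit 1 member was called lower, and leaving out 1 pair also left 1.

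Flavonoid and anthocyanin genes were next. Of 17 tested, 3 (17.6%) were called lower and 0 higher, beside 2.19% of all genes tested called lower. The median was -0.837, with 15 of 17 below 0. The median was -1.21 in the pair numbered 1 and -0.434 in the pair numbered 2, and the summed level was 150 and 86.9 CPM in fry1-6, against 314 and 95.5 CPM in WT, so that 1 WT library stood above the other 3 libraries. DFR, which makes the precursors of anthocyanins, had 1.76 and 1.58 CPM in fry1-6, against 17.1 and 6.58 CPM in WT (log2 change -2.70, SE 0.31, adjusted p 0.00314). LDOX, the next enzyme, had 1.22 and 0.789 CPM in fry1-6 and 14.1 and 2.92 CPM in WT (log2 change -2.84). The early enzymes shared with other flavonoids were not called: TT4, chalcone synthase, had 34.8 and 16.6 CPM in fry1-6 and 80.5 and 22.4 CPM in WT (adjusted p 0.144), and TT5, chalcone isomerase, had 14.4 and 8.03 CPM in fry1-6 and 14.7 and 5.40 CPM in WT. FLS1, of flavonol synthesis, was called lower (13.9 and 6.12 CPM in fry1-6 and 32.3 and 9.69 CPM in WT, log2 change -0.96). For FLS1 the libraries overlapped between the genotypes. DFR kept its call in 17 of 18 alternatives, LDOX in 14 and FLS1 in 8.

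Genes of abscisic acid, drought and cold, the responses through which this gene was first studied, were lower mainly in 1 pair. Of 29 tested, 2 (6.90%) were called lower and 0 higher, beside 2.19% of all genes tested called lower. The median was -0.679, and it was -0.995 in the pair numbered 1 and -0.087 in the pair numbered 2. HAI1, a phosphatase that restrains abscisic acid signalling, had 1.08 and 0.724 CPM in fry1-6, against 5.08 and 5.71 CPM in WT (log2 change -2.58, adjusted p 0.0298). RD22, a dehydration-responsive gene, had 113 and 79.3 CPM in fry1-6 and 338 and 117 CPM in WT (log2 change -1.07). COR15A, a cold-regulated protein of chloroplasts, had 77.5 and 24.7 CPM in fry1-6, against 780 and 73.6 CPM in WT, and missed the threshold (adjusted p 0.0611). The summed level of the list was 2158 and 1967 CPM in fry1-6 and 5790 and 1889 CPM in WT, so that 1 WT library stood above the other 3 libraries.

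Among defence genes of the salicylate pathway, 3 of 20 were called lower and 0 higher, with a median of -0.19. Over all genes tested, 2.19% were called lower and 7.94% higher. SARD1, a transcription factor that turns on salicylate synthesis, had 4.95 and 6.58 CPM in fry1-6, against 15.1 and 13.9 CPM in WT (log2 change -1.34). EDS5, which exports a salicylate precursor from chloroplasts, had 9.83 and 10.1 CPM in fry1-6 and 14.2 and 16.9 CPM in WT (log2 change -0.64), and EDS1, a hub of immune signalling, had 16.4 and 22.1 CPM in fry1-6 and 22.4 and 32.4 CPM in WT (log2 change -0.50). SARD1 kept its call in 11 of 17 alternatives, EDS5 in 6 of 17 and EDS1 in 2 of 18. In the endoplasmic reticulum folding list 1 of 12 genes (8.33%) was called lower and 0 higher. BZIP60, the transcription factor of the unfolded protein response, had 26.6 and 48.2 CPM in fry1-6 and 51.8 and 159 CPM in WT (log2 change -1.35). The median of that list was -0.498, with 11 of 12 members below 0, and it was -0.839 in the pair numbered 1 and -0.113 in the pair numbered 2.

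Genes of sulfur metabolism, the source of PAP, had few calls. Among 18 genes of sulfate assimilation and cysteine synthesis, 2 (11.1%) were called lower and 1 (5.56%) higher, with a median of -0.305. The shares over all genes tested were 2.19% and 7.94%. The ATP sulfurylase APS4, which activates sulfate, had 27.9 and 27.8 CPM in fry1-6, against 56.0 and 46.1 CPM in WT (log2 change -0.87, adjusted p 0.00817), and APS3, of the same family, had 25.7 and 38.0 CPM in fry1-6 and 37.2 and 85.6 CPM in WT (log2 change -0.86). Both are known targets of miR395, and the libraries of APS3 overlapped between the genotypes. SERAT2;1, a serine acetyltransferase of cysteine synthesis, rose, with 32.9 and 16.6 CPM in fry1-6 and 20.3 and 6.02 CPM in WT (log2 change 1.05). However, its libraries overlapped, and it is on the siRNA list. The kinases that make the active sulfate donor, APK and AKN2, were not called, at 76.7 and 52.6 CPM in fry1-6 and 84.7 and 55.4 CPM in WT for APK.

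No gene of the sulfur-starvation markers and sulfate transporters was called among 15 tested, and the median of -0.399 joined pairs of opposite sign, -1.30 in the pair numbered 1 and 0.559 in the pair numbered 2. The sulfate transporter SULTR2;1, also a known target of miR395, had 125 and 138 CPM in fry1-6, against 175 and 171 CPM in WT (adjusted p 0.137). LSU2, a marker of low sulfur, had 11.0 and 9.74 CPM in fry1-6 and 51.7 and 11.3 CPM in WT. Glucosinolates, sulfur-rich defence compounds whose synthesis releases PAP, had 0 of 22 aliphatic genes called (median -0.302). Of 16 indolic genes, 1 (6.25%) was called lower (median -0.31), beside 2.19% of all genes tested. MAM1, which lengthens the side chain, had 303 and 337 CPM in fry1-6 and 385 and 375 CPM in WT and was not called. The indolic gene called was CYP81F4, with 32.9 and 9.80 CPM in fry1-6, against 46.5 and 24.3 CPM in WT (log2 change -0.88), and its libraries overlapped.

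Some genes of DNA replication fell. Of 20 tested genes of DNA replication and cell division, 3 were called lower and 0 higher, with a median of -0.217. Over all genes tested, 2.19% were called lower and 7.94% higher. PCNA1, the sliding clamp of DNA polymerase, had 3.32 and 3.03 CPM in fry1-6, against 11.1 and 5.84 CPM in WT (log2 change -1.35). TSO2 and RNR1, the small and large subunits of ribonucleotide reductase, had 16.5 and 8.62 CPM in fry1-6 and 38.8 and 14.8 CPM in WT for TSO2 (log2 change -1.02), and 34.7 and 27.0 CPM in fry1-6 and 67.1 and 37.6 CPM in WT for RNR1 (log2 change -0.72). POLA2, a subunit of DNA polymerase alpha counted with the DNA damage list, was also called lower (4.88 and 3.55 CPM in fry1-6, against 11.1 and 5.65 CPM in WT). TSO2 had libraries that overlapped between the genotypes. All 4 of these genes lost their calls without the pair.

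Histone genes, which for the core types are expressed along with DNA replication, had some members that fell. They were looked at after their values were seen and have no list test. Of 29 tested genes annotated as histone superfamily proteins, 9 were called lower and 0 higher, against 2.19% of all genes tested called lower. Histone genes annotated in other words are not in this set, and it was not split into core and other types. The median log2 change was -0.528, 27 of 29 were below 0, and in 24 the fry1-6 libraries lay below the WT libraries, beside 19.2% of all genes tested. HTB11, an H2B gene, had 37.5 and 38.6 CPM in fry1-6, against 67.4 and 67.5 CPM in WT (log2 change -0.83), and AT5G10390, the member with the largest change, had 2.30 and 2.24 CPM in fry1-6 and 12.7 and 9.13 CPM in WT (log2 change -2.24). Histone genes of a type are close paralogs, so reads may be split between copies. In whole seedlings, fewer cells of a dividing tissue and less RNA per cell cannot be told apart.

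Factors of RNA decay and of small RNAs, the pathways in which FIERY1 acts, had few calls. Among 24 RNA decay factors 2 (8.33%) were called lower, beside 2.19% of all genes tested, 0 were called higher and the median was 0.015. CAF1a and CAF1b, deadenylases that respond to stress, had 53.5 and 18.6 CPM in fry1-6 and 119 and 40.4 CPM in WT for CAF1a (log2 change -1.13), and 3.32 and 2.57 CPM in fry1-6 and 8.57 CPM in both WT libraries for CAF1b (log2 change -1.55). The libraries of CAF1a overlapped between the genotypes. Of 20 genes of the small RNA machinery (median 0.037), DCL2, a Dicer-like enzyme, was called higher (58.5 and 50.9 CPM in fry1-6, against 37.2 and 30.9 CPM in WT, log2 change 0.69), and so was SGS3, a partner of RDR6 (33.8 and 28.4 CPM in fry1-6 and 24.2 and 18.9 CPM in WT, log2 change 0.53). In this list 2 of 20 genes were thus called higher and 0 lower, beside 7.94% and 2.19% of all genes tested. The call of SGS3 was kept in 4 of 18 alternatives. Genes of ribosome biogenesis had no call among 22 tested (median -0.179). NUC-L1, nucleolin, had 252 and 283 CPM in fry1-6 and 274 and 357 CPM in WT.

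Flowering time genes gave calls in both directions. FT, which encodes the mobile flowering signal, had 0.339 and 1.12 CPM in fry1-6, against 2.83 and 3.73 CPM in WT (log2 change -2.25, adjusted p 0.0207 by edgeR). AGL8, also known as FRUITFULL, had 0.610 and 0.395 CPM in fry1-6 and 2.76 and 2.92 CPM in WT (log2 change -2.50). MAF3, a repressor of flowering related to FLC, had 28.4 and 33.4 CPM in fry1-6, against 15.8 and 16.4 CPM in WT (log2 change 0.94). Of the 11 tested members of the list (median 0.213), 1 (9.09%) was called higher and 2 (18.2%) lower. The shares over all genes tested were 7.94% and 2.19%. FT kept its call in 10 of 17 alternatives, AGL8 in 13 of 17 and MAF3 in 14 of 18. FT and AGL8 are both low in seedlings, and their libraries did not overlap between the genotypes.

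Among cell wall genes, the few calls also went both ways. CESA4, a cellulose synthase of secondary walls, had 63.8 and 185 CPM in fry1-6, against 17.9 and 16.8 CPM in WT (log2 change 2.65), but it overlaps other annotated genes. POM1, a chitinase-like protein needed for cellulose deposition, had 271 and 277 CPM in fry1-6 and 473 and 407 CPM in WT (log2 change -0.68). Of the 13 cellulose genes (median -0.457), 1 (7.69%) was called in each direction. Over all genes tested, 7.94% were called higher and 2.19% lower. Of 18 expansins and xyloglucan enzymes (median -0.176), 2 (11.1%) were called higher and 1 (5.56%) lower. EXPA1 and EXPA8 were the genes called higher and EXPB3 the gene called lower, all with libraries that overlapped. EXPA1, which is on the siRNA list, had 482 and 69.8 CPM in fry1-6 and 201 and 23.8 CPM in WT, so the libraries numbered 1 stood far above those numbered 2 in both genotypes. The phenylpropanoid list had 1 call among 14 genes (7.14%, median 0.16), CCoAOMT1 of lignin synthesis, which was lower with 81.4 and 64.7 CPM in fry1-6 and 173 and 107 CPM in WT (log2 change -0.91).

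The heat shock list differed between the pairs. Its 12 tested members had a median of -0.273, with 0.689 in the pair numbered 1 and -0.645 in the pair numbered 2. Of these members 2 (16.7%) were called higher and 1 (8.33%) lower, beside 7.94% and 2.19% of all genes tested. The small heat shock proteins HSP17.4 and HSP18.2 were called higher, with 3.59 and 3.88 CPM in fry1-6, against 0.290 and 0.621 CPM in WT for HSP17.4 (log2 change 3.02) and 3.52 and 2.50 CPM in fry1-6 and 1.09 and 0.931 CPM in WT for HSP18.2 (log2 change 1.56). MBF1C, a coactivator of heat responses, was called lower (6.44 and 9.87 CPM in fry1-6 and 12.6 and 28.4 CPM in WT, log2 change -1.26). HSP17.4 kept its call in 10 of 16 alternatives, HSP18.2 in 11 of 18 and MBF1C in 10 of 17. The mitochondrial dysfunction list had no call among 13 genes (median -0.666), and its medians were 0.186 and -1.13 in the pairs. AOX1A, the alternative oxidase that marks this response, had 88.4 and 106 CPM in fry1-6 and 93.3 and 240 CPM in WT.

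**Figure D5:**
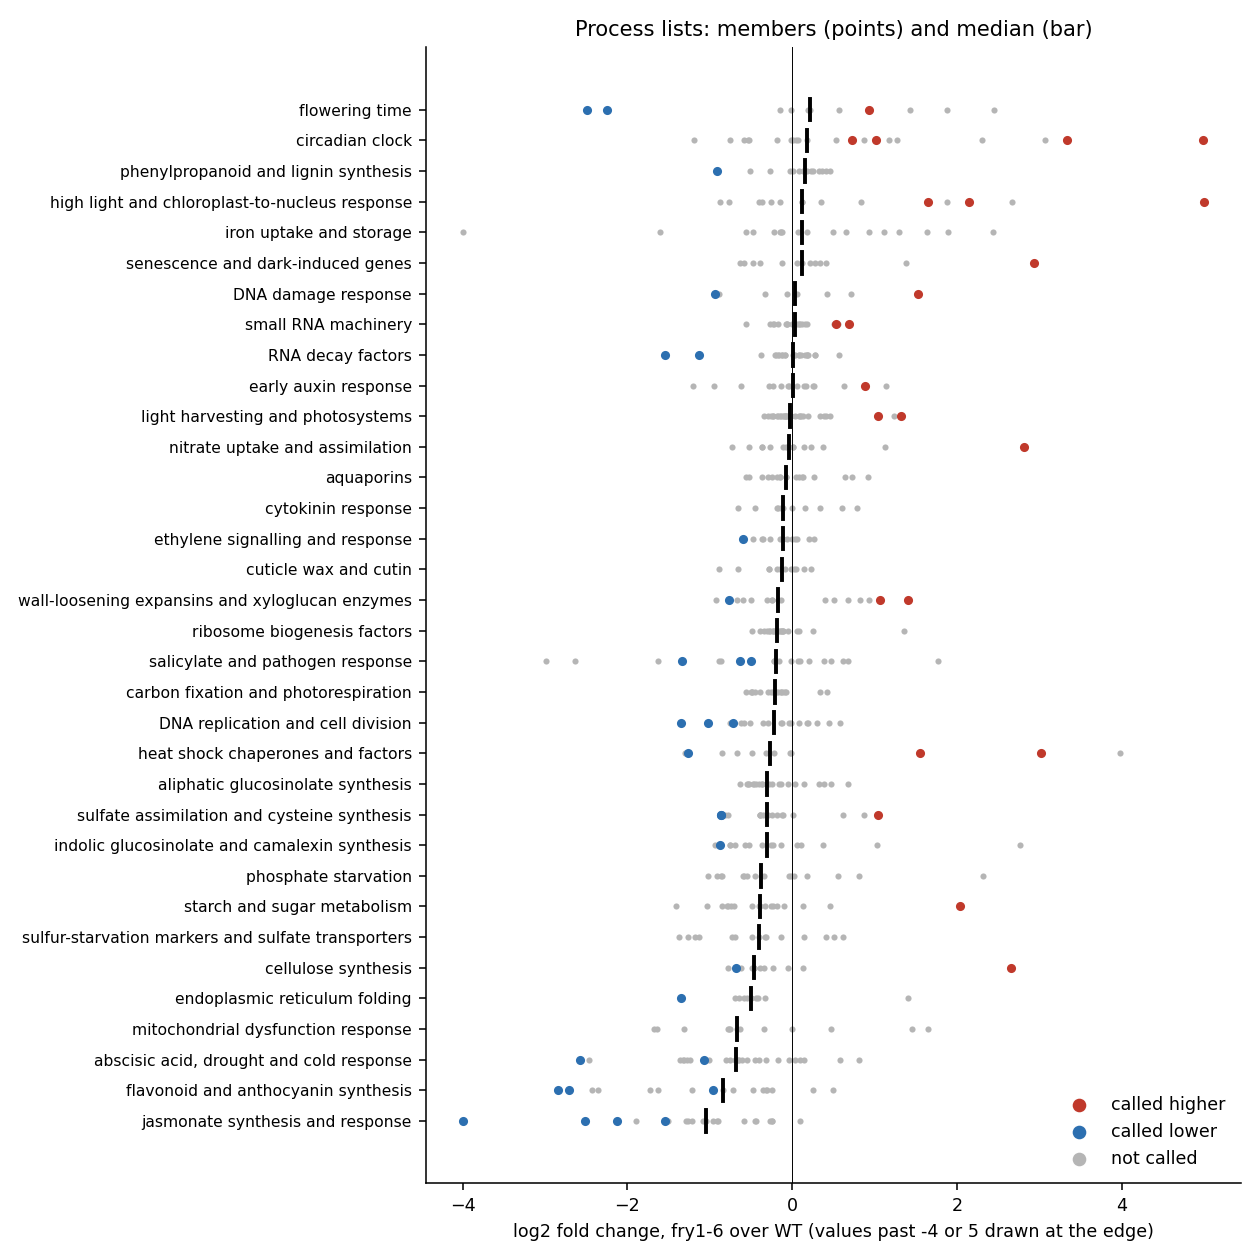
Log2 fold change of fry1-6 over WT for the tested members of each process list (points; red called higher, blue called lower, grey not called) with the list median as a black bar, lists ordered by median. The jasmonate, flavonoid and abscisic acid lists lie lowest, with medians of -1.05, -0.837 and -0.679, and most other medians lie between -0.5 and 0.2.

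In the remaining lists at most 1 gene was called in a direction. Over all genes tested, 7.94% were called higher and 2.19% lower. GBSS1, granule-bound starch synthase, had 23.2 and 16.9 CPM in fry1-6, against 7.11 and 3.17 CPM in WT (log2 change 2.04), in a starch and sugar list of 18 genes whose median was -0.394. NRT2.7, a nitrate transporter 128 bp behind AT5G14580, had 796 and 531 CPM in fry1-6 and 126 and 68.1 CPM in WT (log2 change 2.81), among 14 nitrate genes with a median of -0.034. AT5G14580 was itself called higher, with 16.13 and 13.75 CPM in fry1-6, against 7.04 and 7.20 CPM in WT (log2 change 1.06). NRT2.7 is also on the siRNA list. The senescence list (13 tested, median 0.123) had DIN2 called higher (3.05 and 1.78 CPM in fry1-6, against 0.290 and 0.310 CPM in WT), and the auxin list (16 tested, median 0.0069) had IAA14, a repressor of auxin responses in lateral roots (15.2 and 15.6 CPM in fry1-6 and 7.55 and 9.19 CPM in WT). GR1 (AT3G52115), induced by DNA damage and 1 of 9 tested in that list (median 0.038), rose with 3.59 and 3.82 CPM in fry1-6 and 1.45 and 1.12 CPM in WT (log2 change 1.53). EBF2, an F-box protein that limits ethylene signalling, fell, with 61.3 and 95.7 CPM in fry1-6, against 95.1 and 141 CPM in WT (log2 change -0.60), as the only called gene of 15 in the ethylene list (median -0.116). Its libraries overlapped between the genotypes.

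Aquaporins (18 tested, median -0.073), iron uptake and storage (18, 0.123), phosphate starvation (17, -0.377), cuticle wax and cutin (12, -0.12) and cytokinin response (11, -0.107) had no called member. SQD2, a sulfolipid enzyme that rises when phosphate is short, had 155 and 170 CPM in fry1-6 and 254 and 336 CPM in WT and was not called (adjusted p 0.27), and the iron store FER1 had 102 and 246 CPM in fry1-6 and 171 and 321 CPM in WT.

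Tissue markers described what the seedling libraries held. The leaf list had 10 of 10 members tested with no call (median 0.033), the stamen and pollen list 3 of 12 tested with no call, and the embryo and seed list none of 12 tested. Of 11 root genes, CASP1, which builds the Casparian strip, was called higher (7.39 and 3.29 CPM in fry1-6, against 2.18 and 0.869 CPM in WT), and PYK10, an abundant root glucosidase, was called lower (205 and 123 CPM in fry1-6 and 316 and 266 CPM in WT). Each of these 2 genes makes up 9.09% of the root list, beside 7.94% of all genes tested called higher and 2.19% called lower. The summed root list was 273 and 156 CPM in fry1-6 and 365 and 292 CPM in WT. The part of root material in the other results was not tested.

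The largest decreases, chosen by the same rule as the increases, included lectin, lipase, transporter and storage protein genes. JAL22, a jacalin-related lectin, had 11.9 and 7.43 CPM in fry1-6, against 66.5 and 53.1 CPM in WT (log2 change -2.66, SE 0.19, adjusted p 0.000607 by edgeR). TLL1, a lipase-like protein, had 37.3 and 27.2 CPM in fry1-6 and 249 and 90.7 CPM in WT (log2 change -2.24). DR4, named as repressed by drought, had 35.2 and 21.1 CPM in fry1-6, against 127 and 109 CPM in WT (log2 change -2.11). The transporter gene AT2G16660 had 27.7 and 36.9 CPM in fry1-6 and 106 and 192 CPM in WT (log2 change -2.16). JAL22, DR4 and AT2G16660 kept their calls in 17 of 18 alternatives.

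ESM1, which directs the breakdown products of glucosinolates, had 126 and 75.5 CPM in fry1-6, against 623 and 151 CPM in WT (log2 change -1.66), and BGLU18, which releases abscisic acid from its glucose conjugate, had 37.0 and 41.7 CPM in fry1-6 and 158 and 83.3 CPM in WT (log2 change -1.55). The other members of the 12, besides VSP1, were the subtilase AT4G21650, AT3G60415, AT4G23670, XTH7 and MLP28, with log2 changes between -2.01 and -1.56. WT library 1 was the highest for 10 of the 12, for example AT4G23670 with 207 and 154 CPM in fry1-6 and 819 and 383 CPM in WT.

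Promoters of the called protein-coding genes, taken as 250 bases before to 50 bases after the annotated start, held some motifs at different shares. The evening element AATATCT, known from clock-controlled genes, was found on either strand in 9.47% of promoters of genes called higher, in 14.3% of those of genes called lower and in 11.6% of all 20726 promoters of tested protein-coding genes. The abscisic acid element ACGTGNC was found in 9.28%, 13.2% and 11.4%, and the core of the drought and cold element, CCGAC, in 12.7%, 17.4% and 16.0% in the same order. The telo box AAACCCT, known from genes of growth, had 9.80%, 5.42% and 9.45%, and the sulfur element core GAGAC had 36.6%, 28.6% and 32.8%. The G-box CACGTG, which overlaps some matches of ACGTGNC, gave 7.11%, 9.98% and 8.57%, the W-box TTGAC 52.3%, 53.8% and 50.7%, and the phosphate element GNATATNC 5.20%, 6.07% and 6.28%. Among genes standing apart (314 called higher, 228 called lower and 9093 tested) the lower shares among genes called higher were not seen for all motifs. The evening element had 12.4%, 15.4% and 12.1% in this class, ACGTGNC 11.5%, 15.8% and 11.9%, and the G-box 9.55%, 12.3% and 9.14%, whereas CCGAC had 13.4%, 16.2% and 15.9% and the telo box 9.24%, 6.14% and 9.19%. In the same class GAGAC had 34.1%, 30.3% and 31.2%, the W-box 48.4%, 49.1% and 4542 of 9093, and GNATATNC 3.82%, 7.02% and 6.57%. A match is a description of these letters only.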

How the data were processed

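The deposited files hold raw counts per gene, 1 file per library, together with gene length in bases (other unit, not used in a test). Per the labels and the methods of the study, the authors mapped reads with STAR 2.6 to Araport11, reporting 1 alignment per read, and counted them with featureCounts 1.6.4; the labels and the methods name different library kits. Reads of near-identical copies may thus fall on either copy. Total counts were 15069329 and 15520665 in fry1-6 and 15680704 and 17456185 in WT, and 15069329 to 26285519 over all 8 libraries. The nuclear share was 99.7% and 99.9% in fry1-6, 99.8% and 100.0% in WT and 97.2% to 97.7% in the double mutants. The libraries titled fry1rdr1 carry the genotype fry1rdr6 in another label.

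Of 37361 genes, 37065 were nuclear, and 22653 passed the edgeR 4.0.16 filter (minimum count 10, total 15). Counts of all 8 libraries were fitted with TMM, genotype and 1 pair term for library number in fry1-6 and WT (3 residual degrees of freedom), and tested with the quasi-likelihood test and Benjamini-Hochberg adjustment over all genes at 0.05. The pairing comes from the definition of the comparison and from the deviations (correlation 0.615), not from a label. The script was tested on simulated data. Biological CV was 17.7%. CPM here are counts per 1000000 of TMM-scaled library size, and 3 counts equal 0.197 to 0.203 CPM in fry1-6 and 0.186 to 0.218 CPM in WT. Counting intervals cover counting error only.

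The lists (38, with 666 entries, 613 of them tested) and the comparison itself were chosen with earlier results of these data known. Named genes are FIERY1, up to 4 called members per list by adjusted p, the 12 largest increases and decreases under the rule in the report, and at most 2 members of lists without a call; all others were chosen after their values were seen. Symbols, positions, spacers and promoters come from RefSeq (TAIR10.1), in which all 22653 tested genes were found. Alternatives covered the pair, the libraries fitted, normalization, filters, overlap, threshold, DESeq2 1.42.0 and left-out libraries.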

Additional observations from a re-analysis of the deposited data

How the results depend on the processing

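Without the replicate block (pair term), 1164 genes were called higher and 91 lower, 1163 and 91 of them shared with the paired fit, and a fit of the 4 fry1-6 and WT libraries without the block called 0 genes (2786 at an unadjusted p under 0.05, edgeR), whereas the same 4 libraries with the block gave 1790 higher and 726 lower. Total counts in place of TMM gave 2298 higher and 271 lower and moved the median of all genes to 0.104, with 89.5% of calls higher, against 78.4% in the paired fit; DESeq2 gave 1995 higher and 1007 lower (66.5% higher). At least 10 counts in each of the 4 libraries gave 961 and 281, leaving out overlapping genes 909 and 212 (fewer genes tested), and an adjusted p under 0.01 gave 757 and 56, with 93.1% of calls higher. Leaving out a pair or a double-mutant library gave 520 to 2060 genes higher and 46 to 933 lower: the pair numbered 1 left out gave 597 and 46, the pair numbered 2 gave 520 and 68, a fry1-6 rdr6-11 library 1149 to 1170 and 223 to 232, and a fry1-6 rdr1-1 library 2060 and 926 to 933. In the fits that leave out a pair, the lone libraries were assumed to vary like the other genotypes. The cause of these differences was not tested. Of 76 named genes called, 41 lost the call without the block, 52 without the pair numbered 1, 49 without the pair numbered 2, 33 to 34 without a fry1-6 rdr6-11 library, 8 with total counts and 1 with DESeq2, and none changed sign. In every alternative that called genes, genes with a same-strand neighbour within 200 bp upstream were called higher 6.04 to 13.4 times as often as those with an opposite-strand one. Depth limits low genes such as APX2 and PDF1.2, whose values rest on 3 and 1 counts in 1 genotype.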

Other observations

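The largest increases can be set beside the 4 double-mutant libraries, which carry fry1-6 as well. AT2G18100 had 42.4 and 52.5 CPM in fry1-6 rdr6-11, 34.8 and 27.7 CPM in fry1-6 rdr1-1 and 2.18 and 2.67 CPM in WT, and ABCC6 had 52.7 and 59.1 CPM, 58.3 and 42.7 CPM and 1.02 and 0.559 CPM. AT5G10340, which stands apart from other genes and is on the siRNA list, had 6.85 and 4.43 CPM in fry1-6 rdr6-11, 4.65 and 3.32 CPM in fry1-6 rdr1-1 and 0.145 and 0.124 CPM in WT. EPR1 (AT2G27380) had 8.01 and 10.3 CPM, 25.2 and 27.9 CPM and 0 CPM. All 12 of the largest increases were above both WT libraries in all 4 double-mutant libraries. The rule that chose these 12 asked for a mean level over all 8 libraries. The double mutants therefore took part in the choice, and nothing is concluded from their levels.

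Clock genes varied widely between libraries that share fry1-6. GI had 13.3 and 8.71 CPM in fry1-6 rdr6-11 and 124 and 224 CPM in fry1-6 rdr1-1, beside 277 and 177 CPM in fry1-6. CCA1 had 14.1 and 13.3 CPM in fry1-6 rdr6-11 and 76.2 and 32.7 CPM in fry1-6 rdr1-1, and LHY had 3.32 and 3.59 CPM and 16.9 and 5.49 CPM. These libraries were not compared by a test here.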
